A study of Mus musculus with 7 samples.

Results

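Mab21l2 and 7 genes of the epicardium and of retinoic acid synthesis (Wt1, Tcf21, Tbx18, Upk3b, Bnc1, Aldh1a1 and Aldh1a2) were followed through RNA sequencing of mouse embryonic ventricles, as 8 of the 13701 genes in the deposited count table. They were found by gene symbol. Mab21l2 and Aldh1a1 were chosen because they stood out in the knockout comparisons of these same libraries, so their knockout values are a description and carry no test. The other 6, called the epicardial genes below, are known markers of the epicardium and were chosen with earlier results of these data known. The question was whether the low level of Mab21l2 was accompanied by low levels of other epicardial and proepicardial genes.

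The ventricles came from E11.5 embryos of mixed background, and polyadenylated RNA was sequenced to ask how expression changes in hearts without Hand1, a basic helix-loop-helix factor of the early left ventricle. Hand1 knockout hearts (2 libraries, genotype Nkx Cre +/-; H1flox/flox) carried floxed Hand1 on both alleles and Cre at Nkx2-5. Flox controls (2 libraries, Nkx Cre wt; H1flox/flox) had the floxed alleles without Cre, and Cre controls (3 libraries, Nkx Cre +/-; wt) had Cre with wild-type Hand1, so the knockout shared the floxed alleles with the former and the Cre allele with the latter. Cre expressed from Nkx2-5 acts in heart progenitors and not only in myocardium, although the study's title calls the knockout myocardial. The labels give no litters and do not say whether a library is 1 embryo or a pool, so p-values measure only the spread between these samples.

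The epicardium is the outer cell layer of the heart. It forms from the proepicardium, a cluster of mesothelial cells near the venous pole that spreads over the ventricles, and it sends mitogens to the myocardium and cells into it. Retinoic acid is made from retinol in sequential oxidations, the last of them by retinaldehyde dehydrogenases of the Aldh1a family, and the epicardium is a known source of it through Aldh1a2. Mab21l2 encodes a protein of the male-abnormal-21 family, and mice that lack it are known for defects of the eye, the ventral body wall and the proepicardium.

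The promoters of Mab21l2 and of both Aldh1a genes are shown because these genes carry the comparison below, and because Hand1, like Tcf21, belongs to a class of factors that bind the E-box, CANNTG. The windows run from 250 bases before to 50 bases after a start site in RefSeq (GRCm38.p6), are written 5′ to 3′ on the gene's strand, and have each E-box in capitals. The Mab21l2 window is chr3:86548234-86548533 on the minus strand, the Aldh1a2 window is chr9:71215539-71215838 on the plus strand, and the Aldh1a1 window, the nearer to the deposited gene start of a pair that RefSeq gives, is chr19:20601718-20602017 on the plus strand.
Mab21l2: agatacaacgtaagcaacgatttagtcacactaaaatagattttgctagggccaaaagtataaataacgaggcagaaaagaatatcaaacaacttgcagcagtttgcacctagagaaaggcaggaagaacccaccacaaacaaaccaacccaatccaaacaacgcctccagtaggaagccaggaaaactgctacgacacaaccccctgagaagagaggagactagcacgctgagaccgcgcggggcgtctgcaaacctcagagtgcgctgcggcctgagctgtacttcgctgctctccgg
Aldh1a2: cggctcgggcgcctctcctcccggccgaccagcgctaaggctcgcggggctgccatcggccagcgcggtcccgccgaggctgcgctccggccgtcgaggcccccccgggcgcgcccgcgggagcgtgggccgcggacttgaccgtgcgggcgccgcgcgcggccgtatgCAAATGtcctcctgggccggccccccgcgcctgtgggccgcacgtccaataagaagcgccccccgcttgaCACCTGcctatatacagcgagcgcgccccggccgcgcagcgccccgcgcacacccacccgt
Aldh1a1: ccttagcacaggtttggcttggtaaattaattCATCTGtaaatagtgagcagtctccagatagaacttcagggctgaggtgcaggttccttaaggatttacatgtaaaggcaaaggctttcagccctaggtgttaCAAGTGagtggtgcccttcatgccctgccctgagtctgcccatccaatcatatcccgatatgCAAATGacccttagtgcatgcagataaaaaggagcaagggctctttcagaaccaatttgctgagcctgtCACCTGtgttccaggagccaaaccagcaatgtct
The Mab21l2 window held no CANNTG, the Aldh1a2 window held 2 and the Aldh1a1 window held 4. Of 32851 promoter windows of this length, 72.3% held at least 1 CANNTG on either strand, and 6.49% held 4 or more. The form CATCTG, which is contained in CANNTG, was found in 17.2% of all windows and at 1 place in the Aldh1a1 window shown. Windows were found for 7 of the 8 genes, and those of Tcf21 and Bnc1 also held no CANNTG, while those of Tbx18 and Upk3b held 1 each and the other window of Aldh1a1 held 2. The annotated GENCODE span of Mab21l2 reaches 86548629, beyond the upstream end of the window shown, so that window lies inside that span.

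Hand1 itself was low in both knockout libraries, at 1.29 and 1.14 CPM (counts scaled to library size by the trimmed mean of M-values). Its level was 34.1 and 47.6 CPM in flox controls 1 and 2, and 94.7, 66.3 and 82.6 CPM in Cre controls 1 to 3. Totals ran from 18975283 counts in knockout replicate 2 to 28346700 in knockout replicate 1. Knockout replicate 2 stood apart from the rest: its highest correlation with another library across genes was 0.927, against 0.978 to 0.993 for the other 6. On the log2 scale its 1375 shortest genes had a median deviation of 1.15 from the controls and its 1372 longest genes one of -0.67, whereas knockout replicate 1 had 0.05 and -0.30. Results that rest on knockout replicate 2 are therefore mostly given with and without it, while sums of tissue markers are given for each knockout library. With 1 knockout library left, the spread in such a fit comes from the control groups alone, and the lone library is assumed to vary like them. The sample titles carry a code that starts with NT in both knockout libraries and in flox control 2, and with 10R in Cre controls 1 and 3, and the labels do not say what these prefixes mark. No Cre control has the NT prefix, so it and the genotype cannot be told apart in the comparison with Cre controls. By sex-linked transcripts both knockout embryos, flox control 2 and Cre control 2 were female and the other 3 libraries male.

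Mab21l2 was low in the knockout, with a mean that was 14.0% of that in flox controls and 5.17% of that in Cre controls. The gene occupies chromosome 3, 86545581 to 86548283, on the minus strand of mm10, in 1 exon of 2703 bases. Read counts were 42 and 11 in knockout libraries 1 and 2, 153 and 246 in flox controls 1 and 2, and 683, 411 and 551 in Cre controls 1 to 3. Every knockout library was below every control library, and every flox control was below every Cre control. As CPM (mean ± SD), the knockout had 1.06 ± 0.568 (n = 2), the flox controls had 7.59 ± 2.29 (n = 2) and the Cre controls had 20.6 ± 5.76 (n = 3).

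The fitted log2 fold change of Mab21l2 was -2.78 ± 0.48 (SE) against flox controls and -4.22 ± 0.48 against Cre controls. Without knockout replicate 2 it was -2.35 and -3.79, and without knockout replicate 1 it was -3.51 and -4.95, so the low level was present in each knockout library alone. These values selected the gene and are not tested here. The knockout libraries are shared by both comparisons, which are therefore not independent of each other. In whole ventricles, fewer cells that express a gene and less RNA per cell cannot be told apart.

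Mab21l2 lies inside Lrba, a large gene on the opposite strand that encodes a vesicle-trafficking protein. In GENCODE M21, exons of Lrba transcripts cover 1097 of the 2703 exon bases of Mab21l2 (40.6%), and the use of strand in counting is not given in the sources used here, so reads of the shared bases cannot be assigned with certainty. The exons listed for Lrba in the deposited table share none of these bases. Lrba stood at 24.9 and 12.0 CPM in knockout libraries 1 and 2, at 30.0 and 38.6 in the flox controls and at 32.0, 41.2 and 37.5 in the Cre controls. Its level was thus also below every control in both knockout libraries, which held for 11.6% of the genes tested. Lrba is long, with 11507 exon bases. A trend of log2 level with gene length stood at -0.38 and -0.68 there, relative to the controls, in knockout libraries 1 and 2. Lrba itself deviated by -0.52 and -1.56. The part of Lrba in the Mab21l2 values was not tested. Between the control groups the order differed: the highest Lrba level of a flox control (38.6) lay within the range of the Cre controls, whereas Mab21l2 did not overlap.

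**Figure D1:**
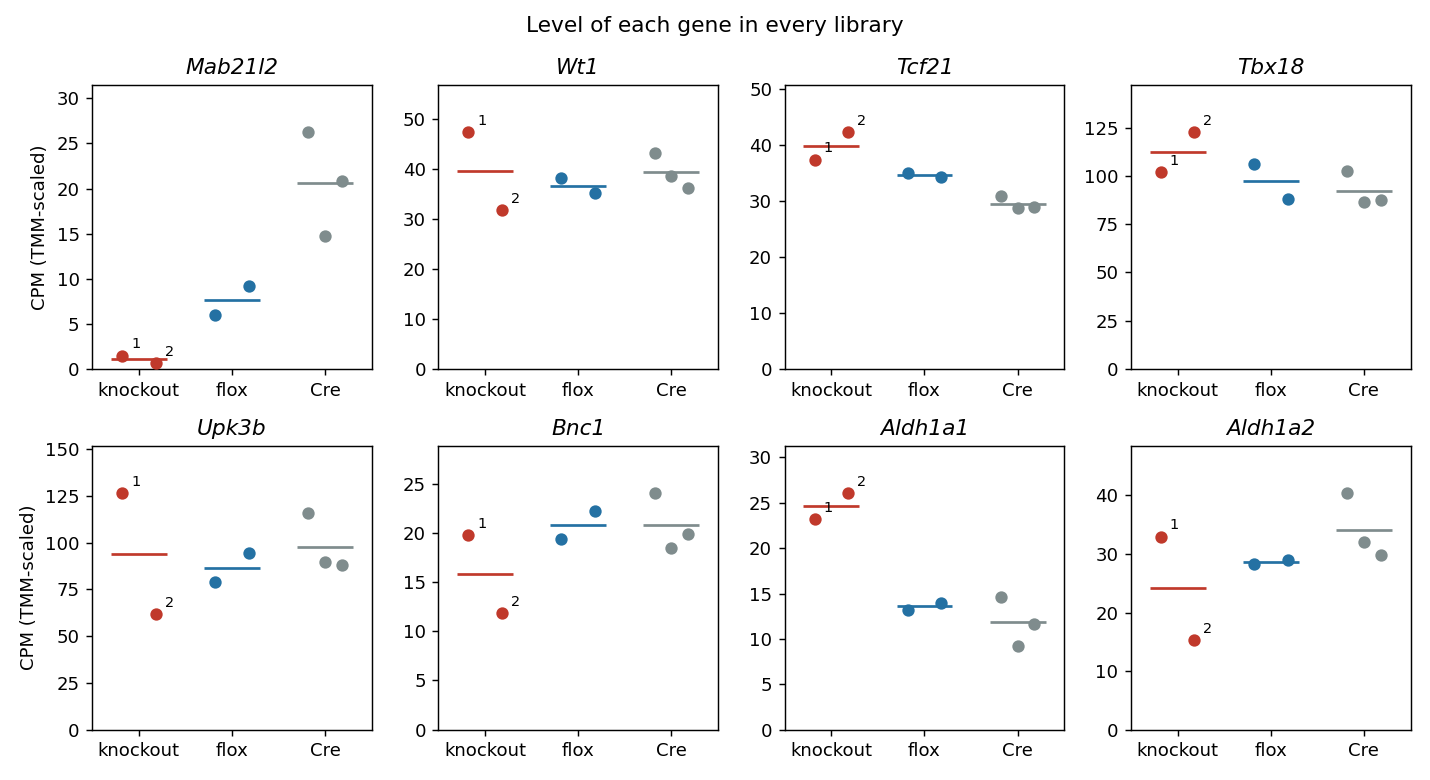
Level of each of the 8 genes (CPM, linear axis from 0) in every library, with a point per library, a line at each group mean and the knockout replicates numbered. Mab21l2 was lower and Aldh1a1 and Tcf21 were higher in both knockout libraries than in all 5 controls, while in the other 5 genes the knockout libraries overlapped or straddled the controls.

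The epicardial transcription factors did not share the low level of Mab21l2. Wt1, a zinc finger factor needed for the epicardium and its mesenchymal derivatives, occupies chromosome 2, 105126529 to 105173614, on the plus strand and has 10 exons. Its level was 47.3 and 31.7 CPM in knockout libraries 1 and 2, 38.3 and 35.1 in flox controls, and 43.3, 38.5 and 36.2 in Cre controls. The knockout libraries were the highest and the lowest of all 7. The log2 fold change of Wt1 was 0.11 ± 0.23 against flox controls (95% interval -0.46 to 0.68, edgeR adjusted p = 0.860) and 0.01 ± 0.21 against Cre controls (-0.51 to 0.53, edgeR adjusted p = 0.979).

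Tcf21, a basic helix-loop-helix factor of epicardial cells that become fibroblasts, occupies chromosome 10, 22817275 to 22820128, on the minus strand and has 2 exons. Its level was 37.4 and 42.3 CPM in knockout libraries 1 and 2, 34.9 and 34.3 in flox controls, and 30.8, 28.7 and 28.9 in Cre controls. Both knockout libraries were above all controls, and the flox controls were above the Cre controls. The log2 fold change was 0.20 ± 0.16 against flox controls (95% interval -0.18 to 0.59, edgeR adjusted p = 0.667) and 0.43 ± 0.14 against Cre controls (0.09 to 0.78, edgeR adjusted p = 0.324). DESeq2 placed the latter just under the threshold of 0.05, with a log2 fold change of 0.46 and an adjusted p of 0.0492. That call was lost without knockout replicate 2 (log2 fold change 0.37, DESeq2 adjusted p = 0.378), without any 1 of the 5 controls (DESeq2 adjusted p from 0.344 to 0.558), and when a trend with gene length was removed (0.12, DESeq2 adjusted p = 0.772). At 1227 exon bases Tcf21 is short, and the length trend at that length lay above the controls by 0.04 in knockout replicate 1 and 0.64 in replicate 2 on the log2 scale. Tcf21 itself deviated by 0.25 and 0.43, and the part of the trend in its level was not tested further.

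Tbx18, a T-box factor of the proepicardium and epicardium, occupies chromosome 9, 87702800 to 87731260, on the minus strand and has 8 exons. Its level was 102.2 and 122.7 CPM in knockout libraries 1 and 2, 106.2 and 88.2 in flox controls, and 102.6, 86.5 and 87.5 in Cre controls. Only knockout replicate 2 was above all controls. The log2 fold change of Tbx18 was 0.21 ± 0.21 against flox controls (95% interval -0.30 to 0.72, edgeR adjusted p = 0.718) and 0.29 ± 0.19 against Cre controls (-0.18 to 0.75, edgeR adjusted p = 0.419). Without knockout replicate 2 it was 0.09 and 0.17. In GENCODE a transcript on the opposite strand, D030062O11Rik, shares 931 of its exon bases (19.9%), and reads there cannot be told apart without strand.

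The remaining epicardial markers differed between the knockout libraries. Upk3b, a uroplakin of mesothelial cell surfaces (chromosome 5 from 136038496 to 136044993, plus strand, 6 exons), stood at 126.5 and 61.7 CPM in knockout libraries 1 and 2, 78.7 and 94.3 in flox controls, and 115.7, 89.4 and 88.0 in Cre controls. Knockout replicate 1 was the highest of all 7 libraries and replicate 2 the lowest. Fitted as log2, the change was 0.12 ± 0.36 against flox controls (95% interval -0.77 to 1.01, edgeR adjusted p = 0.901) and -0.05 ± 0.33 against Cre controls (-0.86 to 0.76, edgeR adjusted p = 0.925). Both intervals are wide on either side of 0.

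Bnc1, which encodes the zinc finger protein basonuclin 1 (chromosome 7 from 81966662 to 81992299, minus strand, 5 exons), stood at 19.8 and 11.9 CPM in knockout libraries 1 and 2, 19.4 and 22.2 in flox controls, and 24.0, 18.4 and 19.9 in Cre controls. Knockout replicate 1 lay among the controls and replicate 2 below all of them. The change on the log2 scale was -0.39 ± 0.28 against flox controls (95% interval -1.09 to 0.30, edgeR adjusted p = 0.646) and -0.39 ± 0.26 against Cre controls (-1.03 to 0.25, edgeR adjusted p = 0.419). With knockout replicate 2 left out it was -0.06 and -0.05. The length trend of that library lay 0.41 below the controls (-0.41) at the length of Bnc1, where the gene itself deviated by -0.80.

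The pair of retinaldehyde dehydrogenases had unlike patterns. Aldh1a2, the main enzyme of retinoic acid synthesis in the embryo (chromosome 9 from 71215789 to 71296243, plus strand, 14 exons), stood at 33.0 and 15.3 CPM in knockout libraries 1 and 2, 28.2 and 29.0 in flox controls, and 40.4, 32.1 and 29.9 in Cre controls. Knockout replicate 1 lay among the controls, and replicate 2 was below all of them. The log2 fold change of Aldh1a2 was -0.24 ± 0.37 against flox controls (95% interval -1.13 to 0.65, edgeR adjusted p = 0.806) and -0.50 ± 0.34 against Cre controls (-1.32 to 0.33, edgeR adjusted p = 0.427). Without knockout replicate 2 it was 0.22 and -0.03, and without knockout replicate 1 it was -0.90 and -1.16. The length trend of knockout replicate 2 at the length of Aldh1a2 was 0.02, against a deviation of -1.04 in that library.

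Aldh1a1, a retinaldehyde dehydrogenase known from the dorsal retina and adult tissues (chromosome 19 from 20601982 to 20643462, plus strand, 13 exons), was counted 665 and 433 times in knockout libraries 1 and 2, 339 and 374 times in flox controls, and 381, 257 and 308 times in Cre controls. In CPM it stood at 23.2 and 26.1 in the knockout replicates, 13.2 and 14.0 in flox controls, and 14.6, 9.21 and 11.6 in Cre controls. Both knockout libraries were above all controls, and the control groups overlapped. Its knockout mean came to 181% of that in flox controls and 208% of that in Cre controls, with fitted log2 fold changes of 0.86 ± 0.25 and 1.06 ± 0.22. With knockout replicate 2 left out these were 0.78 and 1.00, and the length trend of that library was 0.11 at the length of Aldh1a1. The gene was selected on these comparisons, so no test is given. Its close paralog Aldh1a7, with which reads could be shared, was counted 21 and 25 times in knockout libraries 1 and 2, 38 and 25 times in flox controls, and 19, 13 and 35 times in Cre controls, and sharing of reads was not tested.

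Per kilobase of exon, Aldh1a2 was the higher of the pair in every library but knockout replicate 2. Aldh1a1 made up 43.9% and 65.5% of their summed level in knockout libraries 1 and 2, 34.3% and 35.0% in flox controls, and 28.8%, 24.2% and 30.2% in Cre controls. The sum itself was 26.0 and 19.6 CPM per kilobase in the knockout replicates, 19.0 and 19.7 in flox controls, and 25.1, 18.7 and 18.9 in Cre controls. In knockout replicate 1 the larger share went with a higher Aldh1a1 alone, whereas in replicate 2 it also went with a lower Aldh1a2.

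**Figure D2:**
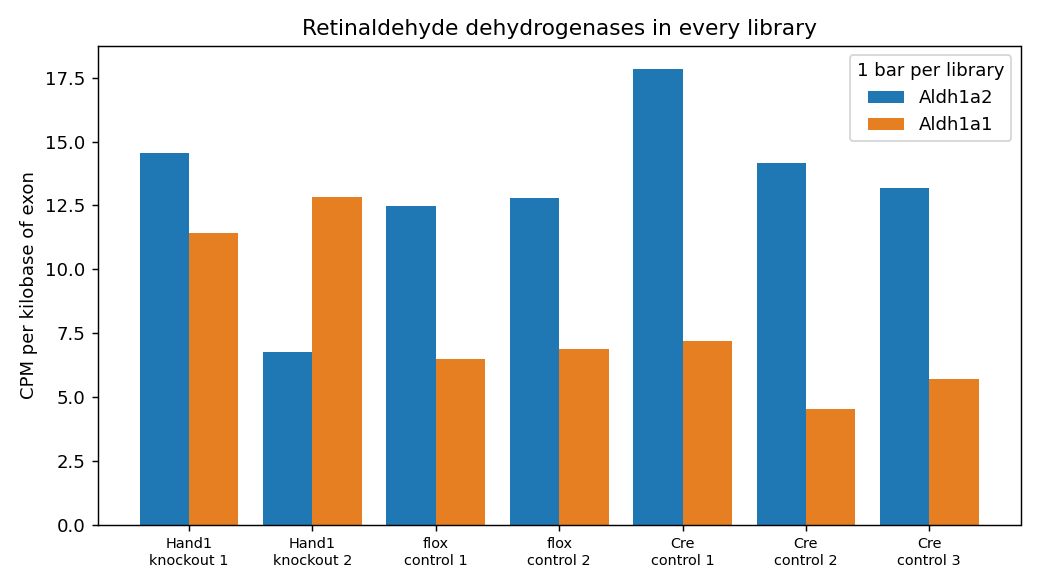
Level of Aldh1a2 and Aldh1a1 in every library, in CPM per kilobase of exon, with 1 bar per gene and library and an axis from 0. Aldh1a1 stood at 11.4 and 12.8 in the knockout libraries and at most at 7.20 in the controls, while Aldh1a2 was at 14.6 in knockout replicate 1 and at 6.76 in replicate 2.

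Across the 6 epicardial genes, 0 were called by edgeR against either control group at an adjusted p below 0.05, where 0.0146% of all 13695 genes tested were called in each comparison. At an unadjusted p below 0.05 edgeR counted 0 of the 6 against flox controls and 1 (Tcf21) against Cre controls, where 8.36% and 15.4% of all genes passed. In the same comparisons limma-voom called 0 in both, and DESeq2 called 0 and 1. DESeq2 called 2.21% of all genes against flox controls and 4.05% against Cre controls. The median log2 fold change of the 6 was 0.12 against flox controls, where that of all genes was 0.02, and -0.02 against Cre controls, where it was -0.00082. Of the 6 genes, 2 had a value below 0 against flox controls and 3 against Cre controls. Their summed level was 366 and 286 CPM in knockout libraries 1 and 2, 306 and 303 in flox controls, and 357, 293 and 290 in Cre controls, so the knockout libraries were the highest and the lowest.

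Of all 8 genes, edgeR called 0 in each comparison, with 2 against flox controls and 3 against Cre controls at an unadjusted p below 0.05. DESeq2 called 1 against flox controls (Mab21l2) and 3 against Cre controls (Mab21l2 lower, Tcf21 and Aldh1a1 higher), and nothing is read from the calls of Mab21l2 and Aldh1a1. Without knockout replicate 2, DESeq2 called 1 and 2 of the 8, where 7.39% and 3.35% of all genes were called. Without knockout replicate 1 it called 4 and 7, where 52.6% and 61.3% of all genes were called. Among the 6 epicardial genes 0 had both knockout libraries below all 5 controls, which held for 11.6% of the 13695 genes tested, and 1 (Tcf21) had both above, which held for 8.19%. Against flox control 2 alone, the control that shares the NT prefix of the knockout, the edgeR log2 fold change was -3.05 for Mab21l2 and 0.82 for Aldh1a1. For the 6 epicardial genes it lay between -0.48 (Bnc1) and 0.36 (Tbx18).

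**Figure D3:**
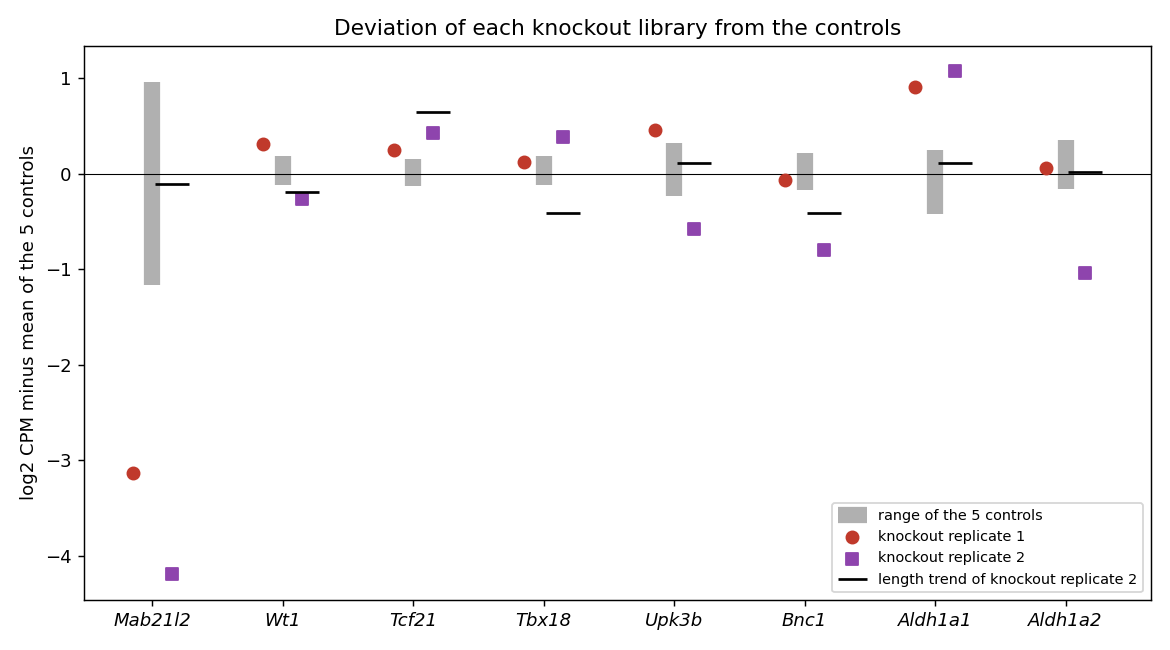
Deviation of each knockout library from the mean of the 5 controls (log2 CPM) for the 8 genes, with the range of the controls as a grey bar and the length trend of knockout replicate 2 as a black line. Mab21l2 lay at -3.13 and -4.19, far below a control range of -1.16 to 0.96, while Upk3b (0.45 and -0.58), Wt1 (0.31 and -0.27) and Aldh1a2 (0.06 and -1.04) differed in sign between the knockout libraries.

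For the same genes in the knockout against the Cre controls, the authors' deposited table held log2 fold changes of -0.51 for Aldh1a2 (FDR 0.260) and -0.40 for Bnc1 (FDR 0.358). The authors' deposited table also held -0.07 for Upk3b (FDR 0.909), -0.01 for Wt1 (FDR 0.990), 0.27 for Tbx18 (FDR 0.502) and 0.41 for Tcf21 (FDR 0.291).

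Levels in the controls set the scale of these comparisons. Averaged over the 5 controls and per kilobase of exon, Upk3b was the highest at 45.8 CPM, followed by Tcf21 at 25.7, Tbx18 at 20.1, Aldh1a2 at 14.1 and Wt1 at 12.4. Aldh1a1 (6.17), Mab21l2 (5.69) and Bnc1 (4.46) were the lowest. The control libraries of Aldh1a2 (12.5 to 17.9 CPM per kilobase) and Wt1 (11.4 to 14.0) overlapped. Those of Aldh1a1 (4.53 to 7.20), Mab21l2 (2.21 to 9.71) and Bnc1 (3.95 to 5.16) also overlapped, so the order within these groups is not resolved. Upk3b (38.7 to 56.9), Tcf21 (23.4 to 28.5) and Tbx18 (18.5 to 22.7) did not overlap with their neighbours.

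Between the control groups Mab21l2 had the largest log2 fold change of the 8 genes. The comparisons that selected Mab21l2 used these same control libraries. Its p-values and calls between the control groups are therefore no independent test, and nothing is read from them. The flox controls held 36.9% of the Cre control level, and the log2 fold change of Cre against flox controls was 1.44 ± 0.40 (95% interval 0.46 to 2.42). This did not pass edgeR with all 7 libraries (adjusted p = 0.999) or DESeq2 (adjusted p = 0.105), although edgeR counted it at an unadjusted p below 0.05. With knockout replicate 2 left out of the fit, DESeq2 gave an adjusted p of 4.66e-05 and edgeR 0.101, and with knockout replicate 1 left out DESeq2 gave 5.84e-05 and edgeR 0.0989. Leaving out any 1 of the 5 controls gave DESeq2 adjusted p-values from 0.224 to 1.0.

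For the other 7 genes the log2 fold changes between the control groups lay between -0.23 (Tcf21) and 0.25 (Aldh1a2). By edgeR 0 of the 8 genes were called, with 1 at an unadjusted p below 0.05, and 0% of all genes were called (428 genes at an unadjusted p below 0.05). DESeq2 also called 0 of the 8, against 0.533% of all genes, and with knockout replicate 1 or 2 left out it called 1 (Mab21l2), against 2.65% and 2.61% of all genes. Mab21l2 and Aldh1a2 had every Cre control above every flox control, which held for 17.2% of the genes tested, and Tcf21 had every Cre control below, which held for 17% of them.

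Hand1 showed the same order as Mab21l2 in the controls. Hand1 was at 50.3% of the Cre control mean in flox controls, and the 5 controls ranked identically in both genes, from flox control 1, the lowest, to Cre control 1, the highest. Mab21l2 stood at 17.5% and 19.3% of the Hand1 CPM in flox controls 1 and 2, and at 27.7%, 22.2% and 25.2% in Cre controls 1 to 3. In the knockout, with 42 against 37 counts in replicate 1 and 11 against 19 in replicate 2, the ratios were 114% and 57.9% and rest on few reads.

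**Figure D4:**
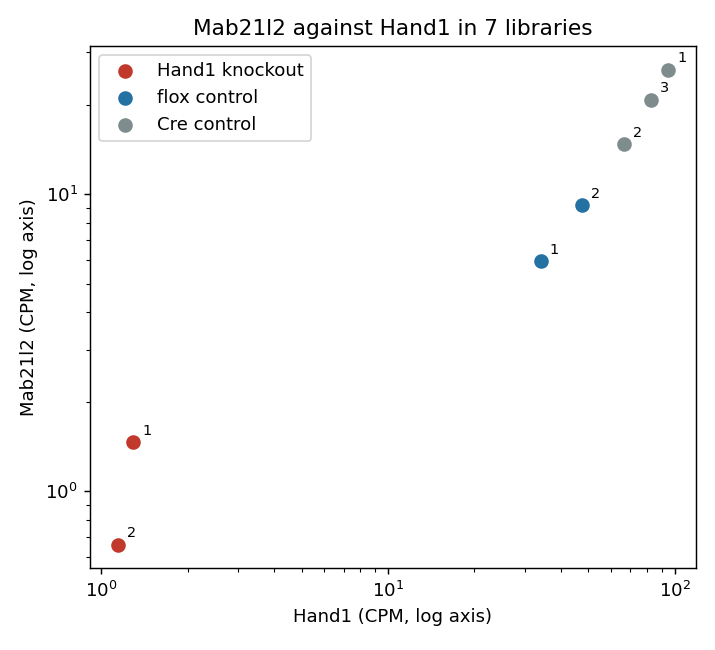
Mab21l2 against Hand1 in all 7 libraries (CPM, both axes logarithmic), with a point per library, colour by group and the replicate number beside it. The 5 controls lie along a line from flox control 1 (34.1 CPM Hand1, 5.97 CPM Mab21l2) to Cre control 1 (94.7 and 26.2), and both knockout libraries lie at the lower left.

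Genes whose pattern was most like that of Mab21l2 were ranked by the Pearson correlation of log2 CPM among 13168 genes with a mean of at least 1 CPM. The libraries share their group, depth and preparation, so the correlations are a description. Over the 7 libraries the most similar were Lrrc3 (r = 0.993), Plekhb1 (0.991), Sft2d2 (0.990), Trim67 (0.990) and Tnc (0.987), and Hand1 ranked at place 28 with 0.971. Over the 5 controls alone the most similar was Hand1 (0.999), followed by Rassf4 (0.999), Msh3 (0.998), Itgb4 (0.995) and Arf6 (0.995).

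None of the other 7 genes was near the top of either ranking. Over the 7 libraries the closest were Bnc1 (r = 0.754, place 1812) and Aldh1a2 (0.732, place 2178), then Upk3b (0.350) and Wt1 (0.168). Tbx18 (-0.731), Aldh1a1 (-0.862) and Tcf21 (-0.933) ran in the opposite direction. Over the 5 controls Aldh1a2 was the closest (0.762, place 1854), and Tcf21 was again the most opposed (-0.785).

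The rest of the retinoid pathway was mostly not called. The lists of these and the following genes were chosen with earlier results of these data known. In them edgeR called 0 of 63 genes measured, with 10 against flox controls and 8 against Cre controls at an unadjusted p below 0.05, where 8.36% and 15.4% of all genes passed, and limma-voom called 0. DESeq2 called 0 against flox controls and 4 against Cre controls (12 at an unadjusted p below 0.05), where it called 2.21% and 4.05% of all genes and had 23.1% at an unadjusted p below 0.05 against Cre controls. The medians of the lists below stand beside those of all genes, which were 0.02 against flox and -0.00082 against Cre controls, and -0.03 and 0.01 without knockout replicate 2.

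Among retinol uptake and binding proteins 4 of 7 had a row, and DESeq2 called 1 of them lower against Cre controls, Crabp1, a cytoplasmic retinoic acid binding protein. Crabp1 stood at 1.01 and 1.57 CPM in knockout libraries 1 and 2, 4.17 and 4.08 in flox controls, and 5.19, 2.94 and 9.47 in Cre controls. Both knockout libraries were below all controls. Its log2 fold change against Cre controls was -2.20 ± 0.56 (DESeq2 adjusted p = 0.00539, edgeR adjusted p = 0.279), and without knockout replicate 2 DESeq2 gave -2.51 (adjusted p = 0.00124). The median of the 4 was -0.28 against flox and -0.18 against Cre controls, and -0.41 and -0.23 without knockout replicate 2.

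Of the 6 retinoid receptors, all with a row, DESeq2 called 1 lower against Cre controls, Rarg, the gamma receptor of retinoic acid. Rarg stood at 12.5 and 5.42 CPM in knockout libraries 1 and 2, 19.1 and 21.4 in flox controls, and 22.1, 19.4 and 25.5 in Cre controls. Again both knockout libraries were below all controls, replicate 2 by more. Against Cre controls the log2 fold change was -1.31 ± 0.37 (DESeq2 adjusted p = 0.0374, edgeR adjusted p = 0.318), and -0.82 without knockout replicate 2 (DESeq2 adjusted p = 0.0239). The median of the 6 receptors was -0.28 against Cre controls, and 0.02 without knockout replicate 2.

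Of the other listed enzymes that act on retinol or retinaldehyde 4 of 6 had a row (Rdh10, Rdh11, Dhrs3 and Dhrs4). By edgeR or DESeq2 0 were called in either knockout comparison. Dhrs4, a retinaldehyde reductase, stood at 33.7 and 33.4 CPM in the knockout replicates, 32.5 and 29.3 in flox controls, and 31.1, 28.9 and 30.0 in Cre controls. Rdh11, a retinol dehydrogenase, stood at 25.0 and 13.7 CPM, 17.1 and 21.4 CPM, and 24.2, 23.0 and 22.7 CPM in the same order. Dhrs4 was thus close in all libraries, with both knockout libraries slightly above all controls, while Rdh11 was lowest in knockout replicate 2. Dhrs3 stood at 5.83 and 5.66 CPM in knockout libraries 1 and 2 and between 3.67 and 4.98 in the controls. Of the 4 enzymes 2 (Dhrs3 and Dhrs4) thus had both knockout libraries above all controls and 0 had both below. Over all genes tested these shares were 8.19% and 11.6%. The median of the 4 was 0.07 against flox and -0.05 against Cre controls, and 0.27 and 0.16 without knockout replicate 2. Of the 3 Cyp26 enzymes that break retinoic acid down 1 had a row. It was Cyp26b1, at 21.4 and 4.64 CPM in knockout libraries 1 and 2, 7.37 and 17.2 in flox controls, and 19.2, 15.1 and 19.6 in Cre controls, and it was called by neither tool.

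**Figure D5:**
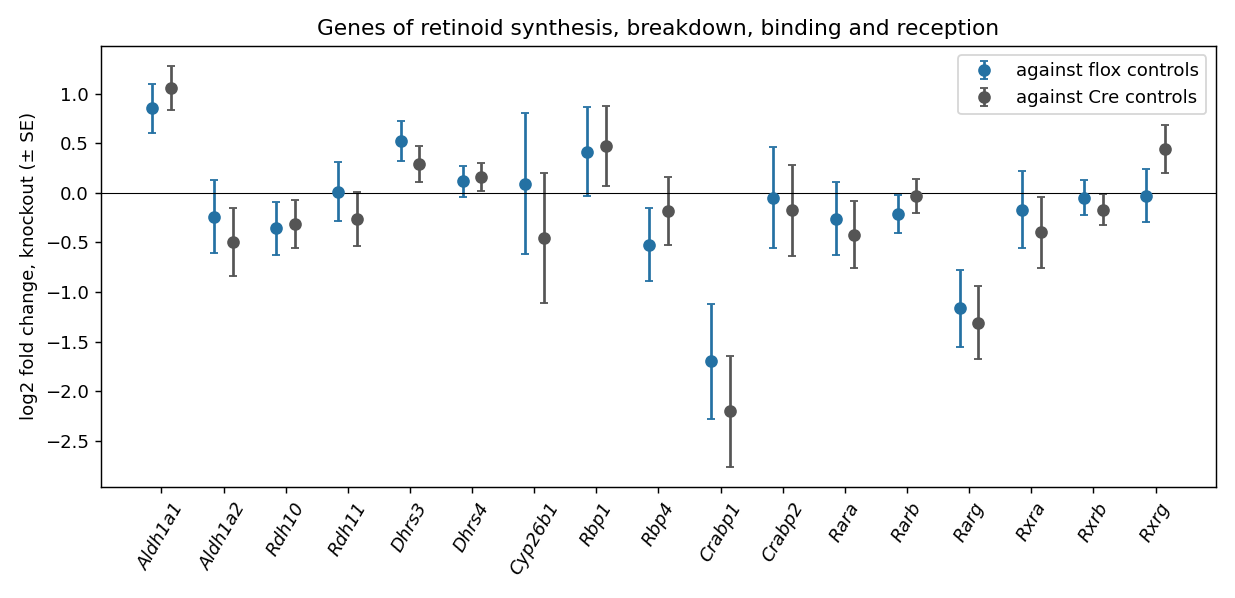
Log2 fold change of the knockout against flox controls and against Cre controls (edgeR, points with SE bars) for the measured genes of retinoid synthesis, breakdown, binding and reception. Aldh1a1 is highest at 0.86 and 1.06, and Crabp1 (-1.70 and -2.20) and Rarg (-1.16 and -1.31) are lowest.

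Other epicardial and mesothelial genes were not called as a group. Of 18 such genes 17 had a row, and edgeR and DESeq2 called 0 in either knockout comparison, with medians of 0.03 (flox) and -0.01 (Cre), or 0.02 and -0.0017 without knockout replicate 2. With knockout replicate 2 left out DESeq2 called 3 against flox controls (Krt18 and Podxl higher, Itga4 lower) and 2 against Cre controls (Itga4 and Tgfbi lower), where 7.39% and 3.35% of all genes were called. These calls compare 1 knockout library with the controls, and Podxl was far lower in the library left out. Podxl, the sialomucin podocalyxin, stood at 274.9 and 53.2 CPM in knockout libraries 1 and 2, 123.8 and 194.0 in flox controls, and 221.6, 185.4 and 191.3 in Cre controls. Tgfbi, a secreted matrix protein, stood at 114.2 and 37.9 CPM, 109.8 and 164.9 CPM, and 207.6, 172.3 and 221.4 CPM in the same order. The knockout libraries were the highest and the lowest for Podxl, and for Tgfbi replicate 1 lay between the flox controls.

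Genes of epicardium-derived mesenchyme had medians of -0.50 against flox and -0.52 against Cre controls over 12 of 12 genes. Without knockout replicate 2 the medians were -0.26 and -0.13. By edgeR and DESeq2 0 of the 12 were called, and without knockout replicate 2 DESeq2 called 3 lower against flox controls (Pdgfra, Postn and Lum) and 1 lower against Cre controls (Pdgfra), where 7.39% and 3.35% of all genes were called. These calls again rest on 1 knockout library, and that of Lum was at the threshold (DESeq2 adjusted p = 0.0499). Col3a1, a fibrillar collagen, stood at 693.1 and 122.1 CPM in knockout libraries 1 and 2, 462.0 and 771.3 in flox controls, and 743.9, 721.9 and 788.1 in Cre controls. Postn, the matrix protein periostin, stood at 241.3 and 131.9 CPM, 398.5 and 370.3 CPM, and 365.0, 319.7 and 440.0 CPM in the same order. Of the 12 genes 3 had both knockout libraries below all controls (Pdgfra, Zeb1 and Postn), which held for 11.6% of all genes tested. Col3a1 was not among them. Pdgfra, a growth factor receptor gene, stood at 98.0 and 47.5 CPM in knockout libraries 1 and 2, 139.0 and 174.5 in flox controls, and 148.3, 149.1 and 183.1 in Cre controls.

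Among factors of the proepicardium and the neighbouring septum transversum 9 of 12 had a row, and DESeq2 called 1 lower against Cre controls, the signalling ligand gene Bmp4. Bmp4 stood at 16.8 and 18.3 CPM in knockout libraries 1 and 2, 29.2 and 31.1 in flox controls, and 44.6, 30.6 and 57.8 in Cre controls. Its knockout libraries were alike and below all controls. Against Cre controls the log2 fold change was -1.34 ± 0.29 (DESeq2 adjusted p = 0.00327, edgeR adjusted p = 0.222), and -1.38 without knockout replicate 2. The median of the 9 was -0.25 against Cre controls, and 0.18 without knockout replicate 2.

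Of the signals between epicardium and myocardium 8 of 11 had a row. Their median log2 fold change was -0.46 against flox and -0.41 against Cre controls, and -0.16 and -0.08 without knockout replicate 2. Of the 8, 3 had both knockout libraries below all controls (Igf1r, Insr and Fgfr2) and 0 had both above, against 11.6% and 8.19% of all genes tested. For these 3 the length trend of knockout replicate 2 was -0.69, -0.64 and -0.47, against deviations of -1.33, -0.41 and -1.03. DESeq2 called 1 of the 8 higher against Cre controls, Fgf9, a growth factor that promotes cardiomyocyte proliferation. Fgf9 stood at 12.9 and 23.1 CPM in knockout libraries 1 and 2, 15.2 and 12.9 in flox controls, and 9.07, 8.56 and 6.42 in Cre controls. Knockout replicate 1 lay at the level of the flox controls. Against Cre controls the log2 fold change was 1.16 ± 0.29 (DESeq2 adjusted p = 0.0207, edgeR adjusted p = 0.279), and the call was lost without knockout replicate 2 (0.71, DESeq2 adjusted p = 0.170).

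Of 4 other genes of the Mab21 family 3 had a row, and 0 were called by edgeR (0 at an unadjusted p below 0.05) or DESeq2 in either knockout comparison. Mb21d2 stood at 25.4 and 16.1 CPM in knockout libraries 1 and 2, 18.9 and 24.4 in flox controls, and 26.5, 24.8 and 26.0 in Cre controls. Mb21d1, which encodes the cytosolic DNA sensor cGAS, stood at 1.08 and 1.99 CPM, 2.65 and 1.35 CPM, and 2.30, 1.76 and 1.92 CPM in the same order. Neither had both knockout libraries outside the controls.

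Markers of other tissues that a dissected ventricle can hold were summed for each library. Liver precursor markers, of which 2 of 8 had a row (Apoa2 and Apob), summed to 1.22 and 0.843 CPM in knockout libraries 1 and 2 and to between 2.42 and 4.91 in the controls. Endocardial and endothelial markers (7 of 7) summed to 980.9 and 582.8 CPM in the knockout and to between 1061 and 1308 in the controls. Both sums were below all controls in both knockout libraries, but 0 of the 2 liver genes and 1 of the 7 endocardial genes (Tek) were so singly. Tek, an endothelial receptor tyrosine kinase, stood at 148.4 and 99.0 CPM in knockout libraries 1 and 2 and between 183.5 and 231.2 in the controls. With all libraries the median log2 fold change of the endocardial list was -0.72 against flox and -0.61 against Cre controls. Without knockout replicate 2 the medians of the list were -0.06 and -0.02. By DESeq2 its genes then ranged from -1.19 (Npr3) to 0.15 (Nfatc1) against flox controls, and from -0.71 (Npr3) to 0.35 (Emcn) against Cre controls. With all libraries DESeq2 called 0 of the endocardial genes, and it called Apob, an apolipoprotein gene, lower against flox controls (log2 fold change -2.76, DESeq2 adjusted p = 6.95e-05). Without knockout replicate 2 that value was -3.31. Apob was not called against Cre controls (-1.08, DESeq2 adjusted p = 0.182), and DESeq2 also called it lower in Cre than in flox controls. It stood at 0.384 and 0.783 CPM in knockout libraries 1 and 2, 3.63 and 4.08 in flox controls, and 0.768, 1.47 and 1.36 in Cre controls. The part of these cell types in the level of Mab21l2 was not tested. Primitive erythroid markers (6 of 6) summed to 2948 and 14147 CPM in the knockout and to between 3681 and 8016 in the controls, so replicate 2 was the highest. In that library, on the log2 scale, Hbb-y deviated by 1.88, Hbb-bh1 by 1.73 and Hba-x by 0.11 from the controls. The length trend at these short genes was 1.44, 1.45 and 1.47, and its part in the sum was not tested. Cushion mesenchyme markers (7 of 7) summed to 931.2 and 1646 CPM against 1047 to 1434, and with all libraries DESeq2 called 0 of them. Without knockout replicate 2 their DESeq2 log2 fold changes ranged from -1.41 (Prrx1) to 0.60 (Msx1) against flox controls. Against Cre controls the range was -1.28 (Prrx1) to 0.75 (Msx1).

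Outflow tract and second heart field markers (4 of 6) had a median log2 fold change of -0.90 against flox and -1.28 against Cre controls. Without knockout replicate 2 the medians were -1.83 and -2.23. DESeq2 called 2 of them lower against Cre controls. Isl1, a factor of second heart field progenitors, stood at 0.698 and 2.29 CPM in knockout libraries 1 and 2, 2.11 and 2.99 in flox controls, and 6.61, 5.27 and 12.5 in Cre controls. Knockout replicate 2 was above flox control 1, and both knockout libraries were below all Cre controls (log2 fold change -2.45, DESeq2 adjusted p = 0.00406, edgeR adjusted p = 0.284). Without knockout replicate 2 the log2 fold change of Isl1 against Cre controls was -3.52. Rgs5, a regulator of G-protein signalling known from pericytes, stood at 0.768 and 1.08 CPM in the knockout, 2.26 and 3.18 in flox controls, and 7.34, 2.08 and 48.4 in Cre controls. Both knockout libraries were below all controls (-4.36 against Cre controls, DESeq2 adjusted p = 0.00309, edgeR adjusted p = 0.324), and the call was lost without knockout replicate 2 (DESeq2 adjusted p = 0.172). The summed level of the list, of which Sema3c was the highest member in each library, was 35.0 and 86.5 CPM in the knockout and between 59.9 and 131 in the controls.

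Neural crest markers (3 of 4) summed to 7.40 and 13.5 CPM against 9.36 to 15.6 in the controls, and DESeq2 called 1 lower against Cre controls. That gene, Sox10, a neural crest factor, was counted 6 and 0 times in knockout libraries 1 and 2, 10 and 13 times in flox controls, and 75, 20 and 85 times in Cre controls (DESeq2 adjusted p = 0.00197, edgeR adjusted p = 0.279). Its DESeq2 log2 fold change against Cre controls was -4.21, and -3.41 without knockout replicate 2. Like Mab21l2, Crabp1 and Bmp4, the called outflow and neural crest genes were lower in the knockout than in Cre controls by DESeq2, and the part of these tissues in the levels of the former was not tested.

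Atrial markers (7 of 7) summed to 6342 and 4867 CPM in the knockout against 3307 to 5290 in the controls. Their median log2 fold change was -0.13 against flox and -0.14 against Cre controls, and -0.07 and 0.05 without knockout replicate 2. By edgeR Stard10, Myl7 and Myl1 had positive values in both comparisons, and Sln, Nr2f1, Nr2f2 and Myh6 negative ones. DESeq2 called Stard10, a lipid transfer protein gene, higher against both control groups (log2 fold change 1.64, adjusted p = 0.00747, and 2.47, adjusted p = 2.93e-08). Without knockout replicate 2 the log2 fold changes of Stard10 were 0.97 and 1.81. With all libraries DESeq2 also called Myl7, a myosin light chain gene of the atria, higher against flox controls (adjusted p = 0.0145). Myl7 stood at 2214 and 3903 CPM in the knockout and between 1295 and 1890 in the controls. Without knockout replicate 2 its DESeq2 log2 fold change against flox controls was 0.72. The length trend of that library was 1.48 at the 590 bases of Myl7, where the gene deviated by 1.27. With the length trend removed DESeq2 called 1 atrial gene higher against flox controls, where it had called 2. Both knockout libraries were above all controls for Stard10 and for Myl7. Ventricular cardiomyocyte markers (8 of 8) were high throughout, at 20830 and 12270 CPM in the knockout and between 15068 and 23496 in the controls. Among them DESeq2 called 1, Nppa, which encodes atrial natriuretic peptide, lower against both control groups (log2 fold change -1.15, adjusted p = 0.000678, and -1.07, adjusted p = 0.000274). Without knockout replicate 2 the log2 fold changes of Nppa were -1.39 and -1.30. Nppa stood at 521.3 and 705.7 CPM in the knockout and between 1230 and 1513 in the controls. Of the 8, 1 (Nppa) had both knockout libraries below all controls and 2 (Myl2 and Hey2) had both above. Myl2 stood at 4981 and 7400 CPM against 3790 to 4678 in the controls, and Hey2 at 133.3 and 129.1 against 105.4 to 122.0. The length trend of knockout replicate 2 was 1.41 at Myl2, where the gene deviated by 0.80. The median log2 fold change of the 8 was 0.15 against flox and -0.11 against Cre controls, and 0.38 and 0.20 without knockout replicate 2.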

How the data were processed

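Ventricular polyadenylated RNA of E11.5 mouse embryos was sequenced in 7 libraries. Per the submitters' processing notes, the tools were STAR (2.4.2a), featureCounts from Subread (1.5.0) and edgeR, with the mm10 build. Settings, annotation and strand use are not given in the sources used here. The authors deposited raw read counts per gene with coordinates and exon length. The table also holds the authors' own comparison of knockout and Cre control libraries, as log2 fold change, p-value and FDR. Groups came from the genotype labels, and replicate numbers from accession order.

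The main test was the quasi-likelihood test of edgeR 4.0.16 (R 4.3.3) on the deposited counts, with TMM scaling, filterByExpr and robust estimation. A single model held all 7 libraries with a mean per group, and p-values were adjusted by Benjamini-Hochberg over 13695 genes, at a threshold of 0.05. CPM was computed from the counts, and its log2 form with a prior count of 2. DESeq2 1.42.0 and limma-voom 3.58.1 were alternatives, as were other scalings and filters, embryo sex as a covariate, fits of the compared groups alone, leaving out each library, and offsets for a spline of 6 degrees of freedom in log gene length. DESeq2 with that offset and without knockout replicate 2, and the list counts under DESeq2 alternatives, were added after the values were seen. The tests were also run on simulated counts with the same spread for every gene, equal control groups and no length trend. That check does not cover a library such as knockout replicate 2.

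The members and lists were chosen with earlier results of these data known. Of each pathway list, genes called by edgeR or DESeq2 were named or, where none was, the 2 with the highest mean CPM. Further genes of these lists, and genes of the tissue marker lists, were named after their values were seen. For likeness the 5 genes with the highest correlation were named. Promoter sequences came from RefSeq and overlaps from GENCODE. Library totals of 18975283 to 28346700 counts leave values near 1 CPM resting on few reads.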

Additional observations from a re-analysis of the deposited data

How the results depend on the processing

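Without exception among the settings tried, Mab21l2 was lower and Aldh1a1 higher in the knockout against both control groups. Both genes were selected on these comparisons, and in both the knockout libraries lay outside all 5 controls. Refits of the same libraries could thus hardly turn these signs, which add no independent support. Of the 8 genes, DESeq2 called 1 against flox controls, 3 against Cre controls and 0 between the controls, where edgeR called 0. With the length trend removed DESeq2 called 1, 2 and 0, and with the trend removed and knockout replicate 2 left out 1, 2 and 1. Leaving out 1 library in turn gave 0 to 4 against flox controls, 0 to 7 against Cre controls and 0 to 1 between the controls, over edgeR and DESeq2. The highest counts against flox and Cre controls came without knockout replicate 1.

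Over all genes, edgeR called 2 against flox controls, 2 against Cre controls and 0 between the controls, and DESeq2 called 302, 555 and 73. With the length trend removed edgeR called 8 against Cre controls and DESeq2 called 182, 465 and 78. With knockout replicate 2 also left out, DESeq2 called 783, 387 and 383. Against flox controls, limma-voom, embryo sex as a covariate and the fit of the compared groups alone each gave 0, and RLE scaling and the filter of at least 1 CPM in 2 libraries each gave 1. Sex as a covariate also gave 0 against Cre controls, and the control libraries alone gave 56 between the controls. Leaving out 1 library gave 0 to 7547, 0 to 8813 and 0 to 363. The cause of these differences was not tested.

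Several small log2 fold changes turned in sign, and the cause was not tested. Wt1 was at -0.01 (-0.0142) against flox controls and -0.08 (-0.0757) against Cre controls without scaling factors, and at -0.02 (-0.0195) against Cre controls by limma-voom. Tcf21 against flox controls was at -0.10 (edgeR) and -0.068 (DESeq2) with the length trend removed. With the trend removed and knockout replicate 2 left out, DESeq2 gave Bnc1 0.052 against flox and 0.037 against Cre controls, Aldh1a2 0.19 against flox controls and Upk3b 0.37 against Cre controls. Bnc1 between the controls was at 0.0030 by DESeq2, 0.0031 with RLE scaling, 0.018 with the stricter filter, 0.010 (edgeR) and 0.016 (DESeq2) with the trend removed, and 0.015 with knockout replicate 2 also left out.

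Leaving out 1 library moved Wt1 between -0.21 and 0.39 against flox and between -0.31 and 0.29 against Cre controls. Upk3b moved between -0.49 and 0.57 and between -0.66 and 0.40, and Aldh1a2 against flox controls between -0.90 and 0.23. In each of these the extremes came without knockout replicate 1 and without knockout replicate 2. Between the controls Tbx18 moved between -0.19 and 0.073 and Bnc1 between -0.12 and 0.13. No paired analysis was possible because the labels give no replicate numbers that groups share, and the NT prefix in the titles numbers no pairs.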
